A study of Mus musculus with 16 samples.

Results

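The genes carried by mitochondrial DNA itself were followed in RAW264.7 cells, a mouse macrophage line that serves as an osteoclast precursor. They were taken as all genes of the expression table whose symbol starts with mt-, written in lower case, with a value above 0 in at least 2 libraries. This gave 15 of 20490 genes, which are 13 protein-coding genes and the ribosomal RNAs mt-Rnr1 and mt-Rnr2. All 15 passed the minimum for testing, 1 RPKM (a read count scaled by gene length and by sequencing depth) in at least 2 libraries, as did 10365 genes in all. After 12 h of attachment the cells had been given EV+RANKL, RANKL, EV or PBS, each for 72 h or 48 h. RANKL, the cytokine that turns such cells into osteoclasts, was used at 10 ng/mL as a GST fusion of the mouse protein. EV stands for extracellular vesicles of PC3M, a metastatic human prostate cancer line, at 30 µg/mL, and PBS is the saline control. Each of the 8 groups had 2 libraries, which makes 16. Whether both libraries of a group stem from separate cultures is not stated in the labels. The p-values therefore measure only how these libraries vary, which may be technical. The cells are 1 line, so no result speaks of differences between animals.

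Mitochondrial DNA is a small circle that codes for core subunits of the respiratory chain and of ATP synthase and for the RNAs of the mitochondrial ribosome, while all other mitochondrial proteins come from nuclear genes. Its strands, called heavy and light, are read as long transcripts that are then cut at the tRNAs lying between most genes. The proteins form the membrane core of complex I (the Nd genes), cytochrome b of complex III (mt-Cytb), the catalytic core of complex IV (the Co genes) and part of the membrane region of complex V, the ATP synthase (mt-Atp6 and mt-Atp8). Osteoclasts are known as cells rich in mitochondria.

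Some of these genes share bases, which bears on how reads can be given to them, so the shared ends are shown here from the GENCODE M21 transcripts. In mt-Atp8, shown whole at 204 bases, the 43 capitals are also the start of mt-Atp6. In mt-Nd4l the 7 capitals are also the start of mt-Nd4. The mRNA of mt-Nd6, read from the light strand, ends on the complement of the end of mt-Nd5, and the 14 capitals mark the bases that pair. All sequences run 5′ to 3′, and for the last 3 genes only the final 30 bases are given.
mt-Atp8: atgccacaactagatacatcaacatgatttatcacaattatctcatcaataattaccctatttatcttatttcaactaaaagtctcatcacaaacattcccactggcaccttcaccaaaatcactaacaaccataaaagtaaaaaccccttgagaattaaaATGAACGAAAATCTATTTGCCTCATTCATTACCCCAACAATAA
mt-Nd4l end: gtccaaaatctcaacctactacaATGCTAA
mt-Nd6 end: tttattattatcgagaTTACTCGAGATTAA
mt-Nd5 end: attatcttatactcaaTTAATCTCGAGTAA

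How reads in shared bases were given to genes, and whether strand was used, is not given in the sources used here. Reads of mt-Nd6 and of heavy-strand RNA lying opposite it therefore cannot be told apart, and neither can reads in the bases that mt-Atp8 shares with mt-Atp6. Reads of near-identical copies of mitochondrial DNA in the nuclear genome cannot be told apart from them either. Another 22 genes of mitochondrial DNA code for tRNAs and were not analysed here.

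Each library held an estimated 18.3 M to 20.0 M reads, where M stands for mega, which put about 3612 to 9603 reads behind mt-Rnr2 and 369782 to 527765 behind mt-Co1. Counting error is thus small for these genes against the spread between libraries, and intervals for it are not given. The cells carried the macrophage markers at 2011 to 8247 RPKM summed over 8 genes and osteoclast markers at 17.5 to 1585 RPKM summed over 8 genes. With RANKL, averaged over vesicles and time, 7 of 7 tested osteoclast markers were higher and 8 of 8 macrophage markers lower. In bulk libraries, more cells of a kind and more RNA per cell cannot be told apart. The table holds 5 of 8 listed epithelial or carcinoma markers, which summed to at most 0.302 RPKM, and 0 of them reached the minimum. Among all genes, 5 libraries stand apart, namely RANKL 72 h replicate 2, both of EV 72 h and both of EV+RANKL 72 h, while RANKL 72 h replicate 1 and both PBS 72 h libraries lie with the 8 of 48 h. This split was taken from an earlier description of the series over every gene. It holds every 72 h library with vesicles, so standing apart and vesicles at 72 h can largely not be told apart. For the averaged comparisons, values from libraries other than these 5 are given where the call or the order of the genes moves with them.

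The mitochondrial mRNAs were among the most abundant of all. By the median level over 16 libraries, mt-Co1, the catalytic subunit of complex IV, ranked 1 among all genes, with 12901 RPKM in the lowest library, 14963 in the median and 17853 in the highest. mt-Cytb ranked 2, with a lowest, median and highest level of 7311, 10754 and 15358 RPKM, and mt-Nd1 ranked 3, with 6874, 9346 and 11863 RPKM. The levels of mt-Cytb and mt-Nd1 overlapped widely across libraries, so their order is not fixed. The next medians were 6776 RPKM for mt-Atp8, 6605 for mt-Co2, 6096 for mt-Atp6, 4971 for mt-Nd6, 4465 for mt-Nd2, 4421 for mt-Nd4, 3692 for mt-Nd5 and 3247 for mt-Co3. Neighbours in this order overlapped in range across libraries, but mt-Atp8 (5699 to 12976 RPKM) and mt-Co2 (5692 to 8379 RPKM) lay above mt-Nd2 (3561 to 5593 RPKM) and mt-Nd5 (2909 to 5127 RPKM) in every library. mt-Nd4l and mt-Nd3 were lower, at medians of 847 RPKM (661 to 1257) and 490 RPKM (364 to 957). The ribosomal RNAs were the lowest of the 15, with medians of 240 RPKM for mt-Rnr1 and 229 for mt-Rnr2, in libraries that the protocol names as mRNA libraries. Levels of mt-Nd6, the complex I gene read from the light strand, are subject to the limit on strand given above.

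Together the 15 genes took 19.3% to 26.9% of the summed RPKM of a library, and the share was higher in most RANKL libraries. It was 26.0% and 25.0% in EV+RANKL 72 h, 26.9% and 24.2% in RANKL 72 h, 22.7% and 19.7% in EV 72 h, and 20.3% and 20.8% in PBS 72 h. At 48 h it was 24.3% and 21.8% in EV+RANKL, 23.6% and 22.6% in RANKL, 21.2% and 19.3% in EV, and 20.1% and 20.7% in PBS. The 8 libraries with RANKL lay between 21.8% and 26.9% and the 8 without it between 19.3% and 22.7%, and EV 72 h replicate 1 was the library without RANKL that reached into the range with RANKL. At equal vesicles and time, the mean share with RANKL exceeded the mean without it in each of 4 comparisons, by 4.32 and 5.02 percentage points at 72 h (with and without vesicles) and by 2.79 and 2.69 points at 48 h. The mean of these differences was 3.70 points, against a pooled SD of 1.36 points between the libraries of a group (n = 2 each). The same mean difference was 0.0912 points for vesicles, and its 4 parts lay between -0.15 and 0.63. For 72 h against 48 h it was 1.52 points. No test was made on this share.

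**Figure D1:**
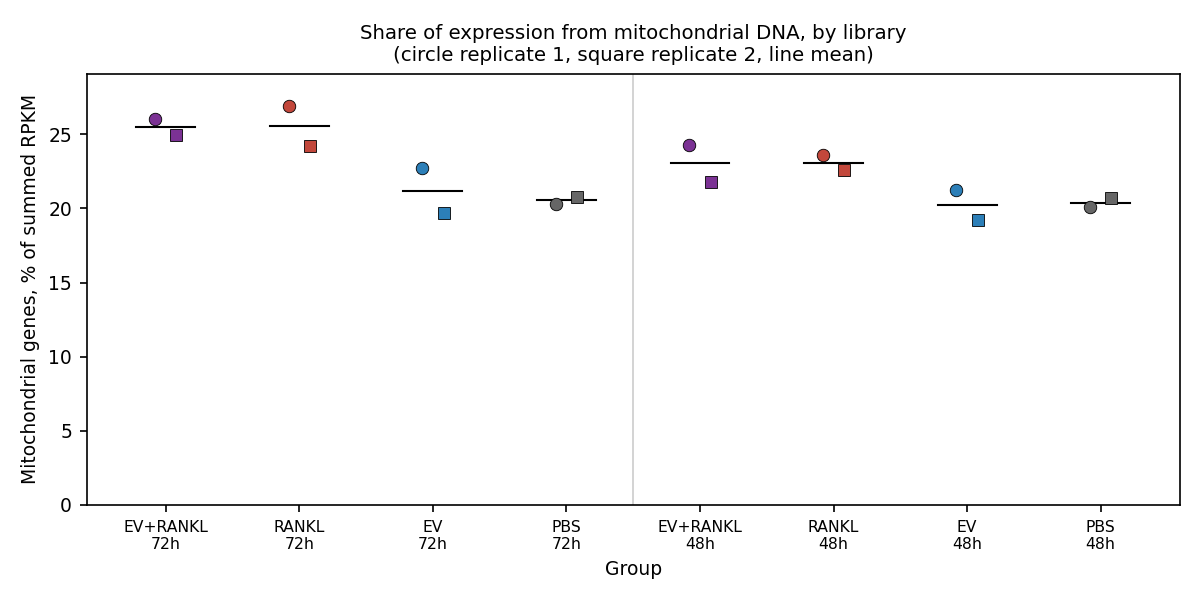
Percent of the summed RPKM taken by the 15 mitochondrial genes (vertical axis) in each library, by group. Circles are replicate 1, squares replicate 2 and lines the mean of the 2 libraries. The RANKL and EV+RANKL libraries lie between 21.8% and 26.9%, the EV and PBS libraries between 19.3% and 22.7%.

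Most mitochondrial genes were higher where RANKL was present. Averaged over the 4 comparisons of RANKL present with RANKL absent, 13 of 15 genes were higher and 0 lower (limma, Benjamini-Hochberg adjusted p below 0.05), while 42.3% of all tested genes passed the test and 21.9% passed it as higher. The median change of the 15 was 0.34 on the log2 scale of RPKM + 1, against 0.02 over all tested genes. The genes that did not pass were mt-Co1 and mt-Nd6. The 13 calls held under both other scalings of the libraries and under a pseudocount of 0.1, but with no minimum RPKM the count was 6. With the 48 h libraries alone, which hold none of the 5 that stand apart, 12 genes were higher, 11 of them shared with the 13, while 43.0% of all genes passed and 26.0% passed as higher. mt-Nd6 was the 1 gene gained there. The osteoclast markers rose in the same libraries, and their part in these changes was not tested.

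Among the complex I genes, mt-Nd1 and mt-Nd2, which code for membrane-arm subunits, separated the libraries fully. mt-Nd1 had a lowest, median and highest level of 9637, 10053 and 11863 RPKM in the 8 libraries with RANKL, against 6874, 8201 and 9055 RPKM in the 8 without it. mt-Nd2 had 4576, 5101 and 5593 RPKM with RANKL, against 3561, 3848 and 4353 RPKM without it. For both genes every library with RANKL lay above every library without it, which was so, in either direction, for 2 of the 15 and for 7.04% of all tested genes. The change averaged 0.35 ± 0.06 for mt-Nd1 (SE, adjusted p = 7.3e-04) and 0.37 ± 0.06 for mt-Nd2 (SE, adjusted p = 2.6e-04). mt-Nd3 had the largest average change of the protein-coding genes, 0.52 ± 0.08 (SE, adjusted p = 1.3e-04), with 476, 587 and 957 RPKM (lowest, median, highest) in libraries with RANKL, against 364, 438 and 586 RPKM in those without it, and here the ranges overlapped. At 48 h alone the change of mt-Nd3 was 0.25 (adjusted p = 0.031), below those of mt-Nd1 (0.30), mt-Nd2 (0.30) and mt-Nd4l (0.27). mt-Nd4l (0.36 ± 0.06), mt-Nd4 (0.34 ± 0.07) and mt-Nd5 (0.24 ± 0.07) were also higher. mt-Nd6 had 3926, 5482 and 7559 RPKM with RANKL, against 2997, 4918 and 5536 RPKM without it. Its average change of 0.21 ± 0.11 (SE) missed the threshold (adjusted p = 0.13), passed it at 48 h alone (0.17, adjusted p = 0.045), and also without RANKL 72 h replicate 2 (0.33, adjusted p = 2.5e-04), while without RANKL 72 h replicate 1 it was 0.096 (adjusted p = 0.13).

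In complex IV, 2 of the 3 catalytic-core genes passed the test. mt-Co1 had 13763, 15235 and 17853 RPKM with RANKL, against 12901, 14247 and 16706 RPKM without it, a change of 0.09 ± 0.06 (SE, adjusted p = 0.24). mt-Co2 had 6413, 7516 and 8379 RPKM with RANKL, against 5692, 6188 and 7720 RPKM without it, a rise of 0.23 ± 0.05 (SE, adjusted p = 3.1e-03). mt-Co3 rose by 0.35 ± 0.07 (SE, adjusted p = 2.1e-03), but at 48 h alone its change was 0.16 (adjusted p = 0.089). As a percent of the summed RPKM of the 15 genes, mt-Co1 was lower in all 8 libraries with RANKL, at 16.7% to 18.5%, than in all 8 without it, at 19.3% to 21.4%. It was the 1 gene of the 15 (6.67%) to do so, while by level 7.04% of all tested genes separated these libraries. The percents share the same sum, so a gene that rises less than the others takes a smaller percent. The 2 complex V genes rose, mt-Atp8 by 0.34 ± 0.08 and mt-Atp6 by 0.29 ± 0.06 (SE, adjusted p = 2.7e-03 and 1.9e-03). mt-Cytb, the complex III gene, rose by 0.26 ± 0.08 (SE, adjusted p = 0.023), and leaving out any of 5 libraries in turn put its adjusted p between 0.053 and 0.058. At 48 h alone mt-Cytb changed by 0.16 (adjusted p = 0.092), while mt-Atp8 was higher by 0.20 and mt-Atp6 by 0.23.

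**Figure D2:**
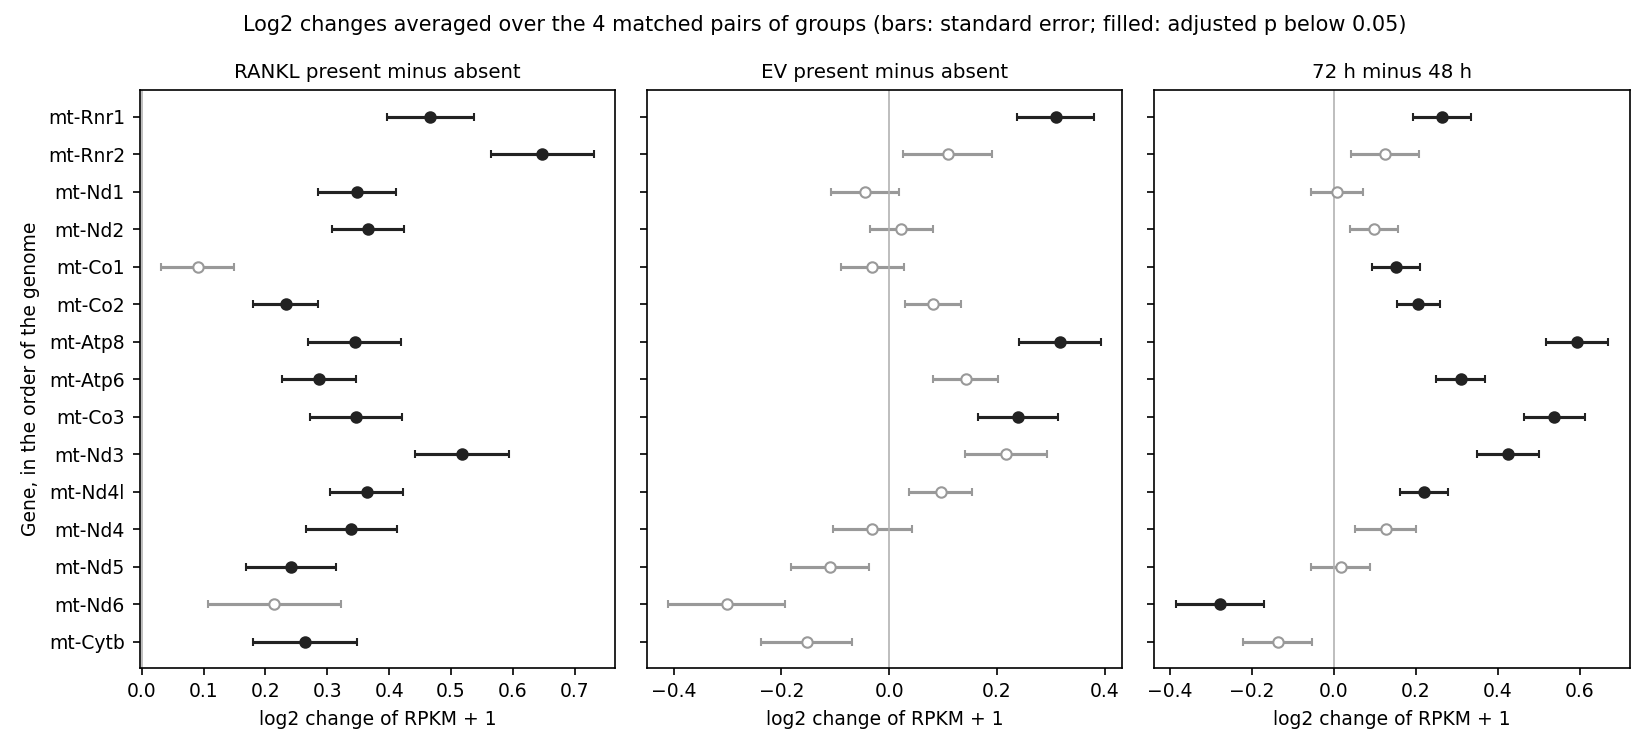
Average log2 changes of RPKM + 1 (horizontal axes) of the 15 mitochondrial genes for RANKL present minus absent, EV present minus absent and 72 h minus 48 h, each over 4 matched comparisons of groups. Points are limma estimates, bars their standard errors, and filled points have an adjusted p below 0.05. With RANKL, 13 points are filled and all 15 lie above 0, while for time mt-Nd6 lies below 0 at -0.28 and mt-Atp8 highest at 0.59.

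The ribosomal RNAs, mt-Rnr1 of the small and mt-Rnr2 of the large mitochondrial ribosome subunit, had the lowest levels in PBS at 48 h. mt-Rnr1 measured 303 and 318 RPKM in EV+RANKL 72 h, 234 and 320 in RANKL 72 h, 243 and 249 in EV 72 h, and 236 and 209 in PBS 72 h. At 48 h it measured 324 and 300 RPKM in EV+RANKL, 218 and 249 in RANKL, 229 and 190 in EV, and 144 and 151 in PBS. The PBS 48 h libraries lay below all others for this gene. mt-Rnr2 measured 268 and 281 RPKM in EV+RANKL 72 h, 234 and 278 in RANKL 72 h, 155 and 161 in EV 72 h, and 236 and 164 in PBS 72 h. At 48 h it measured 304 and 259 RPKM in EV+RANKL, 224 and 235 in RANKL, 193 and 157 in EV, and 150 and 125 in PBS. With RANKL, averaged over vesicles and time, mt-Rnr2 rose by 0.65 ± 0.08 and mt-Rnr1 by 0.47 ± 0.07 (SE, adjusted p = 4.3e-05 and 1.8e-04), and of the other 13 genes only mt-Nd3 changed by as much as mt-Rnr1. At 48 h alone the changes were 0.71 for mt-Rnr2, 0.62 for mt-Rnr1 and 0.25 for mt-Nd3. In mRNA libraries, a change in the level of ribosomal RNA and a change in how much of it was carried over cannot be told apart.

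RANKL alone against PBS gave 2 higher genes at 48 h, mt-Rnr1 (0.66 ± 0.14, SE, adjusted p = 7.6e-03) and mt-Rnr2 (0.74 ± 0.17, SE, adjusted p = 9.1e-03), while 14.8% of all tested genes passed, 6.47% as higher. At 72 h it gave 8, mt-Nd2, mt-Nd3, mt-Nd4l, mt-Nd4, mt-Co2, mt-Co3, mt-Atp6 and mt-Atp8, while 18.9% of all tested genes passed, 9.73% as higher. At 72 h the replicates of RANKL disagreed. mt-Atp8 measured 8069 and 11836 RPKM there, against 5775 and 6134 RPKM in PBS 72 h, and mt-Nd6 measured 7559 and 3926 RPKM, against 4943 and 5000 RPKM in PBS 72 h. The sign of the mt-Nd6 change therefore turned with the library. It was 0.13 with both, -0.34 (adjusted p = 0.046) without RANKL 72 h replicate 1 and 0.60 without replicate 2. Without RANKL 72 h replicate 2, 5 genes passed, of which only mt-Nd3 and mt-Atp8 are among the 8, and mt-Nd5, mt-Nd6 and mt-Cytb were added. Without PBS 72 h replicate 1, 3 passed (mt-Nd3, mt-Atp8 and, added, mt-Rnr2), and without PBS 72 h replicate 2, 3 passed (mt-Nd3, mt-Atp8 and mt-Nd4l). The 48 h count of 2 was 0 without RANKL 48 h replicate 2 and 1 without either of the PBS 48 h libraries. The RANKL change was not shown to differ between 72 h and 48 h, since 0 of 15 genes passed limma's test of that difference (4 had an unadjusted p below 0.05), as did 0.0289% of all genes.

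Averaged over RANKL and time, 3 of 15 mitochondrial genes were higher with vesicles and 0 lower, a share near that over all tested genes, of which 22.2% passed and 12.1% passed as higher. They were mt-Atp8 (0.32 ± 0.08, SE, adjusted p = 0.013), mt-Rnr1 (0.31 ± 0.07, SE, adjusted p = 0.011) and mt-Co3 (0.24 ± 0.07, SE, adjusted p = 0.036). mt-Rnr1 had a lowest, median and highest level of 190, 275 and 324 RPKM in the 8 libraries with vesicles, against 144, 226 and 320 RPKM in the 8 without. The ranges of all 15 genes overlapped between libraries with and without vesicles, and 0.106% of all tested genes did not overlap. With 48 h libraries alone mt-Rnr1 was the 1 gene called, at 0.45 (adjusted p = 7.3e-03), while 9.34% of all genes passed and 4.77% passed as higher, and mt-Atp8 and mt-Co3 changed there by 0.0028 and 0.01. Without RANKL 72 h replicate 2 the count was 8, with mt-Nd3 and mt-Atp6 added as higher and mt-Nd5, mt-Nd6 and mt-Cytb as lower.

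Against PBS alone at 72 h, vesicles were followed by 2 higher genes. mt-Atp8 measured 11495 and 10067 RPKM in EV 72 h, against 5775 and 6134 RPKM in PBS 72 h, a rise of 0.85 ± 0.15 (SE, adjusted p = 9.0e-03). mt-Co3 measured 4712 and 4342 RPKM in EV 72 h, against 3121 and 3106 RPKM in PBS 72 h, a rise of 0.54 ± 0.15 (SE, adjusted p = 0.028). Both EV 72 h libraries are among the 5 that stand apart. Of all tested genes 18.3% passed in this comparison, 10.4% as higher, and 2 of 15 is near that share. mt-Nd6 measured 3557 and 2997 RPKM in EV 72 h, against 4943 and 5000 RPKM in PBS 72 h, and its change of -0.61 ± 0.22 (SE) missed the threshold (adjusted p = 0.066). The count of 2 was 0 without EV 72 h replicate 1 or PBS 72 h replicate 2, 1 without PBS 72 h replicate 1 and 5 without EV 72 h replicate 2. At 48 h, 0 of 15 passed limma's test (2 at an unadjusted p below 0.05), while 1.29% of all genes passed. The comparisons of EV and of RANKL with PBS share their PBS libraries.

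Added to RANKL, vesicles gave 0 of 15 calls by limma at 72 h (2 at an unadjusted p below 0.05) and 0 at 48 h (1 at an unadjusted p below 0.05), while 1.83% and 0.434% of all tested genes passed. At 72 h mt-Atp8 measured 12962 and 12976 RPKM in EV+RANKL, against 8069 and 11836 RPKM in RANKL, a change of 0.41 ± 0.15 (SE, adjusted p = 0.16). Without RANKL 72 h replicate 2 the 72 h count was 4, with mt-Atp8 (0.68) and mt-Co3 (0.63) higher and mt-Nd6 (-0.82) and mt-Cytb (-0.51) lower. The effect of vesicles was not shown to depend on RANKL, with 0 of 15 genes at 72 h (0 at an unadjusted p below 0.05) and 0 at 48 h (1 at an unadjusted p below 0.05) in limma's test of the interaction. Of all genes, 0.00965% passed that test at 72 h and 0.00965% at 48 h. The difference of the EV change between 72 h and 48 h also gave 0 of 15 (4 at an unadjusted p below 0.05), while 0.0193% of all genes passed.

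The comparison of 72 h with 48 h, averaged over the 4 treatments, holds the 5 libraries that stand apart. With these included, 8 of 15 genes were higher at 72 h and 1, mt-Nd6, lower. Calls in both directions together came to a share near that of all tested genes, of which 55.8% passed. By direction, 27.4% of all tested genes passed as higher and 28.5% as lower, so the calls among the 15 lay more on the higher side. With all 16 libraries the largest changes were those of mt-Atp8 (0.59 ± 0.08), mt-Co3 (0.54 ± 0.07) and mt-Nd3 (0.42 ± 0.08), followed by mt-Atp6, mt-Rnr1, mt-Nd4l, mt-Co2 and mt-Co1 (0.31 to 0.15). mt-Nd6 was lower, by -0.28 ± 0.11 (SE, adjusted p = 0.043). Leaving out the 5 takes away every 72 h library with vesicles. That fit averages PBS and RANKL only, with 1 RANKL 72 h library, so it is a different and smaller comparison than the average over 4 treatments. Without the 5 libraries that stand apart 0 of 15 passed limma's test, while 10.5% of all genes passed, and the change of mt-Nd6 was then 0.13. The sizes and their order moved as well, with changes of 0.14 for mt-Atp8, 0.19 for mt-Co3, 0.20 for mt-Nd3 and 0.15 for mt-Atp6, while those of mt-Rnr1 (0.30) and mt-Rnr2 (0.28) were then the largest. No gene of the 15 separated all 72 h from all 48 h libraries, while 3.33% of all tested genes did.

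Within treatments, the genes that passed for 72 h against 48 h came from groups that hold libraries standing apart. In EV+RANKL 5 were higher, mt-Atp8 (0.95 ± 0.15), mt-Co3 (0.90 ± 0.15), mt-Nd3, mt-Atp6 and mt-Nd4l, while 38.9% of all tested genes passed, 17.4% as higher. In EV 4 were higher, mt-Atp8 (0.86 ± 0.15), mt-Co3 (0.63 ± 0.15), mt-Nd4l and mt-Atp6, while 32.3% of all genes passed, 17.4% as higher. In RANKL 2 were higher, mt-Nd3 (0.58 ± 0.15) and mt-Co3 (0.55 ± 0.15), while 6.03% passed, 3.45% as higher. In PBS 0 passed limma's test (2 at an unadjusted p below 0.05, the ribosomal RNAs), while 0.646% of all genes passed. mt-Atp8 shows the contrast by library, with 12962 and 12976 RPKM in EV+RANKL 72 h, against 7185 and 6229 RPKM in EV+RANKL 48 h, and with 5775 and 6134 RPKM in PBS 72 h, against 5752 and 5911 RPKM in PBS 48 h. Leaving out RANKL 72 h replicate 2 or either of the RANKL 48 h libraries gave 0 calls in RANKL, and leaving out RANKL 72 h replicate 1 gave 5. In EV the count was 1 without EV 72 h replicate 1 or EV 48 h replicate 2 and 2 without EV 48 h replicate 1. In EV+RANKL it was 3 without EV+RANKL 72 h replicate 1 or EV+RANKL 48 h replicate 2.

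**Figure D3:**
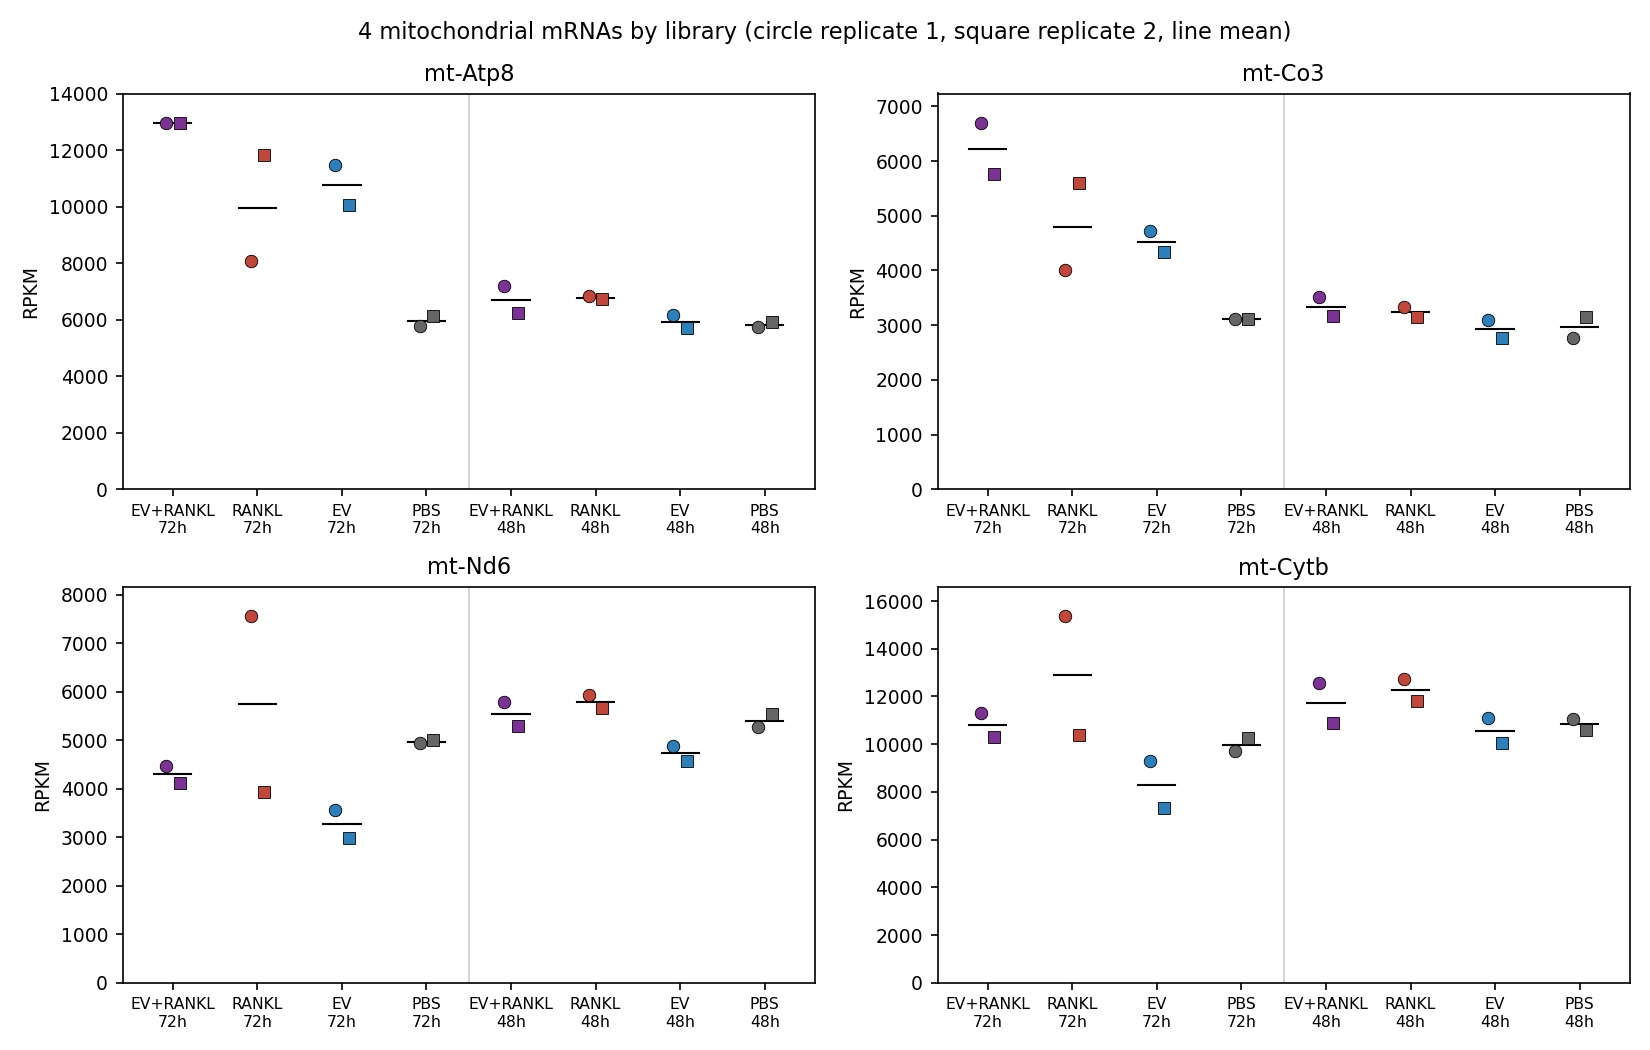
RPKM (vertical axes) of mt-Atp8, mt-Co3, mt-Nd6 and mt-Cytb in each library, by group. Circles are replicate 1, squares replicate 2 and lines the mean of the 2 libraries. In RANKL 72 h the replicates part, with mt-Atp8 at 8069 and 11836 RPKM and mt-Nd6 at 7559 and 3926 RPKM.

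The make-up of the mitochondrial RNA is the percent that each gene takes of the summed RPKM of the 15. It separated the 5 libraries from the other 11 for 7 of the 15 genes (46.7%), and no like share over all genes was computed. The percents share the same sum, so where some genes take more, others take less. In these 5 libraries 4 genes took more than in any of the other 11. mt-Atp8 took 13.2% to 14.3% in the 5, against 7.98% to 8.58% in the other 11. mt-Atp6 took 8.68% to 9.15%, against 7.01% to 7.72%. mt-Co3 took 5.61% to 6.88%, against 3.92% to 4.37%, and mt-Nd3 took 0.697% to 0.984%, against 0.517% to 0.646%. These 4 lie next to each other in the gene order, apart from tRNA genes. Another 3 took less in all 5, again neighbours. mt-Nd5 took 4.08% to 4.36% in the 5, against 4.51% to 5.24% in the other 11. mt-Nd6 took 4.23% to 4.60%, against 6.64% to 7.69%, and mt-Cytb took 10.4% to 11.6%, against 13.4% to 15.7%. The other 8 genes overlapped, among them mt-Nd4l and mt-Nd4, which lie between both groups of neighbours. Of these 7 genes, mt-Nd6 is read from the light strand and the others from the heavy strand.

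By their levels, mt-Atp8 and mt-Co3 lay higher in all 5 libraries than in the other 11 and mt-Nd6 lower. That is 3 of 15 (20%), near the 15.0% of all tested genes that did not overlap. The levels of mt-Atp6, mt-Nd3, mt-Nd5 and mt-Cytb overlapped. These values describe libraries grouped by their profile over all genes, which includes the 15, and no test applies. RANKL 72 h replicate 2 shared the make-up of the 5, with a ratio of mt-Atp8 to mt-Nd6 of 3.01, and RANKL 72 h replicate 1 that of the other 11, with a ratio of 1.07. That ratio was 2.90 to 3.36 in the 5 and 1.07 to 1.26 in the other 11. Even between genes whose mRNA is one molecule the values parted, with a ratio of mt-Atp8 to mt-Atp6 of 1.47 to 1.57 in the 5 and 1.04 to 1.16 in the other 11. The genes for cytosolic ribosomal proteins, short and abundant mRNAs of nuclear origin, took 11.1% to 11.5% of the summed RPKM in the 5 libraries and 8.23% to 9.84% in the other 11. The part of that shift in the make-up was not tested, and the labels name no batch.

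**Figure D4:**
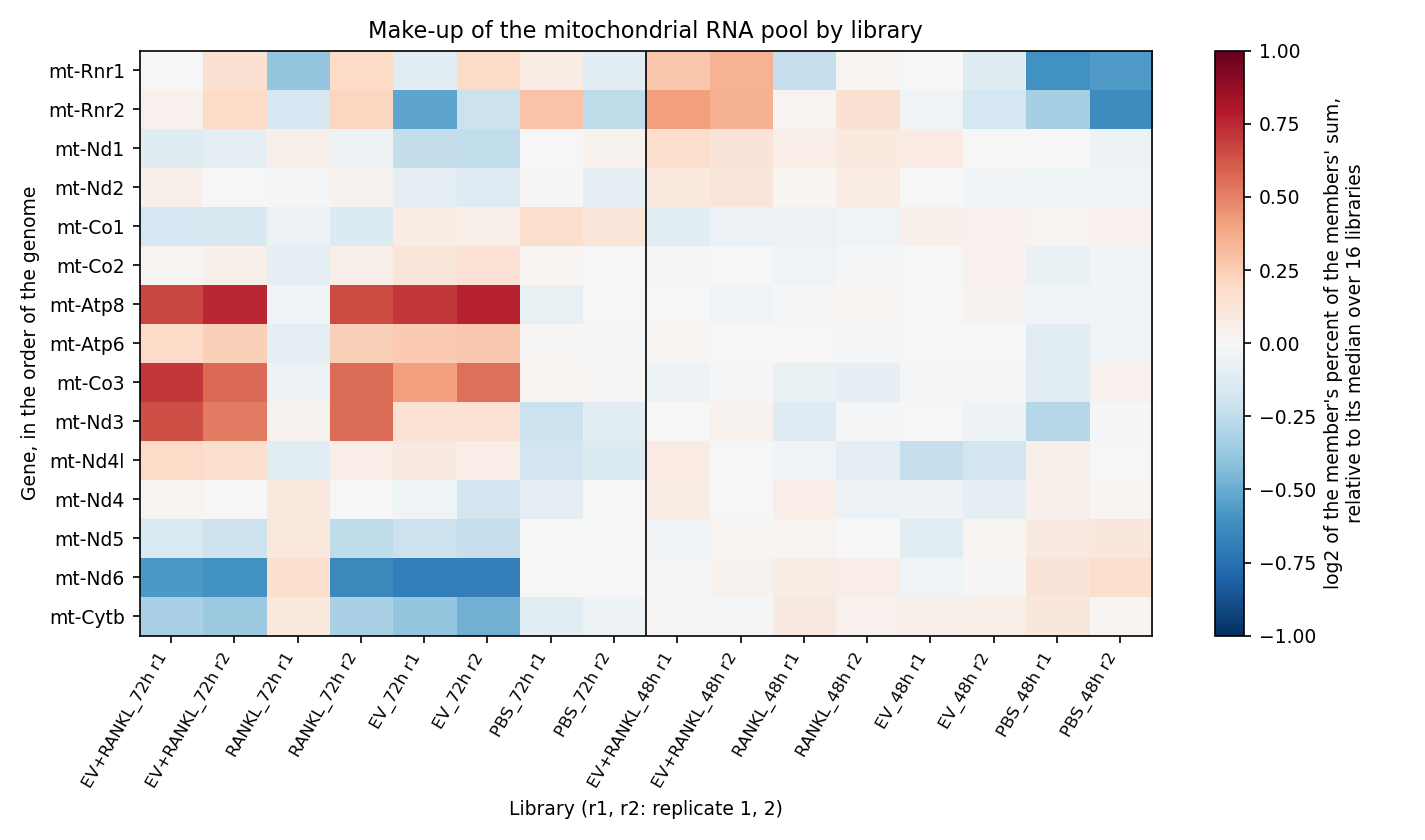
Make-up of the mitochondrial RNA by library. Rows are the 15 genes in the order of the genome, columns the 16 libraries, and colour is the log2 of the gene's percent of the summed RPKM of the 15, relative to its median over the libraries. The 5 libraries EV+RANKL 72 h (both), RANKL 72 h replicate 2 and EV 72 h (both) are red from mt-Atp8 to mt-Nd3 and blue from mt-Nd5 to mt-Cytb.

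The nuclear genes for the other subunits of the same complexes also lay higher with RANKL, averaged over vesicles and time. Of 72 nuclear subunit genes of complexes I, III, IV and V, 38 rose and 0 fell, with a median change of 0.20 against 0.02 over all tested genes, of which 21.9% passed as higher. By complex, 12 of 36 rose in complex I, 6 of 9 in complex III, 9 of 12 in complex IV and 11 of 15 in complex V. In complex I, Ndufs1 (0.35), Ndufs3 (0.42) and Ndufv1 (0.39), all in the peripheral arm, were among the genes of smallest adjusted p. In complex III those with the smallest adjusted p were Uqcrc2 (0.42), Uqcrh (0.29), Uqcrfs1, the Rieske iron-sulfur protein (0.45), and Uqcrc1 (0.28). In complex IV they were Cox6c (0.26), Ndufa4 (0.41), Cox8a (0.27) and Cox7a2 (0.33), and in complex V Atp5c1 (0.22), Atp5g3 (0.29), Atp5f1 (0.26) and Atp5b (0.27). The mitochondrial genes of the same complexes had medians of 0.35 in complex I (6 of 7 rose), 0.26 in complex III (1 of 1), 0.23 in complex IV (2 of 3) and 0.32 in complex V (2 of 2). No difference between the genomes was tested. For RANKL against PBS at 48 h, which compares none of the 5 libraries that stand apart, 3 of the 72 nuclear genes rose and 0 fell. Their median change was 0.18, and 6.47% of all tested genes passed as higher.

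**Figure D5:**
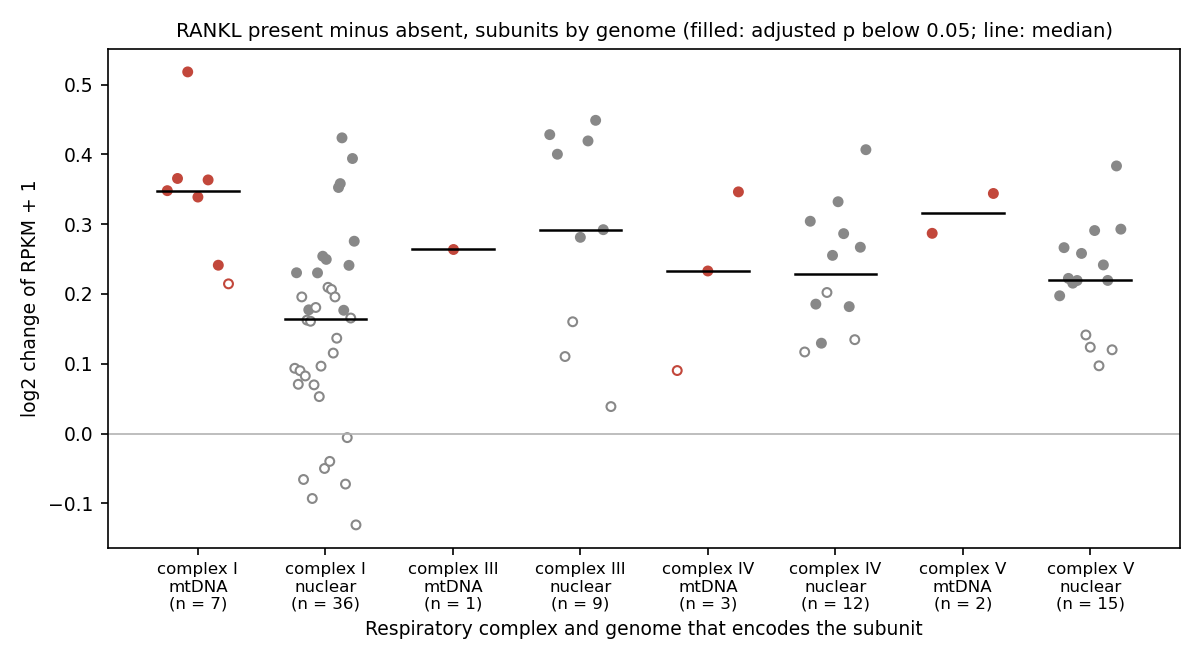
Log2 change of RPKM + 1 with RANKL (vertical axis, RANKL present minus absent over 4 matched comparisons) of respiratory subunit genes, by complex and by the genome that codes for them. Each point is a gene, filled where its adjusted p is below 0.05, and lines are medians. Of the nuclear genes 38 of 72 are filled, all above 0, and of the mitochondrial mRNAs 11 of 13.

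With vesicles 13 of the 72 nuclear subunit genes rose and 2 fell (median change 0.14), while 12.1% of all genes passed as higher. At 72 h against 48 h 41 rose and 5 fell (median change 0.21), while 27.4% of all genes passed as higher. Among the genes with the smallest adjusted p for vesicles were Ndufs8 (0.31), Ndufb3 (0.17) and Ndufv1 (0.22) in complex I, Cox6c (0.16), Cox7a2 (0.25), Cox4i1 (0.18) and Cox5b (0.21) in complex IV, and Atp5g2 (0.26) and Atp5e (0.21) in complex V. In complex III Uqcrb fell (-0.28) and Uqcrfs1 rose (0.23). For 72 h against 48 h they were Ndufv3 (0.48), Ndufa6 (0.27) and Ndufa7 (0.49), with Ndufs5 lower (-0.43), Uqcrq (0.46), Uqcrfs1 (0.38) and Uqcr10 (0.34), with Uqcrb lower (-0.37), then Cox6c (0.40), Cox7b (0.36), Cox8a (0.35) and Cox4i1 (0.30), and Atp5e (0.48), Atp5g2 (0.47), Atp5j2 (0.39) and Atp5l (0.47). Both comparisons hold the libraries that stand apart. Where none of these is compared, 0 of the 72 passed limma's test for EV against PBS at 48 h (median change 0.09). The same count was 0 for 72 h against 48 h in PBS (median change 0.13). Of all tested genes 1.29% and 0.646% passed there.

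The nuclear genes that copy, read and process mitochondrial DNA were counted against the 21.9% of all tested genes that were higher and the 20.4% that were lower with RANKL. In the transcription machinery 0 of 9 tested genes fell with RANKL and 2 rose, the latter a share near that of all tested genes. They were Tfb2m, which opens the promoter for the mitochondrial RNA polymerase (0.31 ± 0.04, SE, adjusted p = 6.6e-05), and Tefm, an elongation factor (0.20 ± 0.07, SE, adjusted p = 0.038). The polymerase itself, Polrmt, changed by 0.15 ± 0.06 (SE) and missed the threshold (adjusted p = 0.052). In replication and packaging 5 of 13 rose, Primpol (0.26), Rrm2b (0.23), Dguok (0.28), Atad3a (0.15) and Tfam, which coats the DNA and starts its transcription (0.14 ± 0.05, SE, adjusted p = 0.037). In RNA processing and decay 8 of 20 rose and 1 fell. Hsd17b10, a subunit of the mitochondrial RNase P, rose by 1.03 ± 0.10 (SE, adjusted p = 2.8e-06), its partner Trmt10c by 0.36, Ptcd3 by 0.29, and Lrpprc, which protects mitochondrial mRNAs, by 0.35 ± 0.05 (SE, adjusted p = 8.3e-05). Slirp, the partner of Lrpprc, changed by -0.02 (adjusted p = 0.81). Of 77 tested genes for mitochondrial ribosomal proteins, 20 rose and 2 fell, with a median of 0.05. The share that rose is near the background of 21.9%, while the share that fell is below the 20.4% of all tested genes. Mrpl12 was counted both here and in the transcription machinery. For these 77, 5 rose and 2 fell with vesicles (12.1% and 10.1% of all tested genes), and 11 rose and 23 fell at 72 h against 48 h (27.4% and 28.5% of all tested genes).

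Among 10 tested regulators of mitochondrial biogenesis 3 rose with RANKL and 2 fell, against 21.9% and 20.4% of all tested genes. Myc rose by 2.39 ± 0.17 (SE, adjusted p = 2.9e-07), the coactivator Ppargc1b by 0.54 ± 0.05 (SE, adjusted p = 5.3e-06) and the nuclear receptor Esrra by 0.18, while of the 2 that fell Tfe3 (-0.32) had the smaller adjusted p. With vesicles Myc rose by 0.78 and Gabpb1 fell (-0.14), and at 72 h against 48 h Myc (-1.30), Pprc1 (-0.47), Gabpa (-0.27) and Gabpb1 (-0.22) were lower. Tfam changed by -0.0032 with vesicles and by -0.04 between the times, Polrmt by 0.09 and 0.01, Lrpprc by 0.11 and 0.04 and Slirp by 0.01 and -0.07, and none of these 8 changes passed the test. In RNA processing and decay Fastk rose (0.21) and Rexo2 fell (-0.26) with vesicles, and 2 of 20 rose and 10 fell at 72 h against 48 h (27.4% and 28.5% of all tested genes), the fall being led by Rexo2 (-0.45) and Ptcd3 (-0.36), while Hsd17b10 (0.62) and Fastk (0.27) rose. In the transcription machinery 0 passed with vesicles by limma, and at 72 h Mrpl12 (-0.54), Mterf3 (-0.16) and Tfb2m (-0.16) were lower and Tefm (0.33) higher. In replication and packaging Tk2 rose with vesicles (0.24), and at 72 h Dguok (0.54) and Tk2 (0.35) were higher and Ssbp1 (-0.29) and Dna2 (-0.29) lower. The genes named in these lists are those of smallest adjusted p. Of all tested genes 12.1% were higher and 10.1% lower with vesicles, and 27.4% and 28.5% at 72 h against 48 h. Both comparisons hold the libraries that stand apart, and the averages were not refitted for these lists without them.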

How the data were processed

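Messenger RNA libraries of RAW264.7 cells were made with a TruSeq mRNA kit from RNeasy total RNA, per the labels' protocols. FastQC, HISAT2 and Partek are listed as tools and GRCh38 and hg38 as builds, per the submitters' processing notes, although the symbols are those of mouse. Any mouse build and annotation were not given in the sources used here, and coordinates are not printed. GENCODE M21 served for gene order, strand, length and sequence only.

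The deposited table, made by the authors, was read as log2(RPKM + 1), a unit inferred from its values: with base 2, 77.2% to 81.6% of low values per library lay within 0.05 of a whole number of reads, against 59.9% to 66.0% with base e. One column of EV+RANKL at 48 h lacks an R in its header and was assigned by group, as replicate 2 because replicate 1 has its own column.

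From these values limma 3.58.1 in R 4.3.3 was fitted with a variance trend, 8 group means and all 16 libraries, on 10365 genes at 1 RPKM or more in 2 libraries, with Benjamini-Hochberg adjustment over all of them for each comparison and a threshold of 0.05. The fit was tested on simulated data. Alternatives were a pseudocount of 0.1, no minimum, 2 other scalings, no variance trend, a replicate block and each library left out. The mitochondrial genes are all described. Of the nuclear lists, the 4 tested genes of smallest adjusted p in each average are the named ones, printed where they passed, with Polrmt, Tfam, Lrpprc and Slirp throughout. One gene that this rule names is not reported here. The mitochondrial genes and the lists were chosen with earlier results of these data known, and so were the added alternatives (48 h alone, and without the 5 libraries that stand apart). Replicate numbers were not taken to pair libraries.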

Additional observations from a re-analysis of the deposited data

How the results depend on the processing

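The count for RANKL averaged over vesicles and time was 13 with a pseudocount of 0.1, under both other scalings, with no variance trend and with the replicate block. With no minimum RPKM it was 6, and in that fit the counts were 1 for vesicles averaged, 5 for 72 h averaged, 2 for RANKL and 0 for EV against PBS at 72 h, and, for 72 h against 48 h, 0 in RANKL, 1 in EV and 3 in EV+RANKL (the cause was not tested). For 72 h against 48 h in RANKL, where the count was 2, it was 1 with a pseudocount of 0.1 and 0 with equal summed RPKM. With the replicate block it was 0, and 3 in EV+RANKL (the cause was not tested). The numbers were not taken as pairs. Correlations of deviations ran from -0.039 to 0.53 (median 0.12) over 21 pairs of groups, 11 of them above 0.1. They give no reason against pairing, and whether libraries of like number share a source was not tested. The block fit leaves out the library whose column names no sample. With the block the averaged counts were 13 for RANKL, 3 for vesicles and 8 for 72 h. The added alternatives gave 1 for vesicles at 48 h alone and 0 for 72 h averaged without the 5 libraries. There mt-Nd6 changed by 0.13 in place of -0.28, and against PBS at 72 h in RANKL it changed by -0.34 to 0.60 with 1 library left out (0.13 with all). Expressed as the median log2 level of the protein-coding genes, the 72 h difference in place of 1.52 percentage points was 0.041 (log2).

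With each library left out in turn, counts ran from 12 to 14 for RANKL averaged, 2 to 8 for vesicles averaged and 7 to 9 for 72 h averaged. They ran from 0 to 2 for RANKL and 0 to 0 for EV against PBS at 48 h, from 3 to 8 for RANKL and 0 to 5 for EV against PBS at 72 h, and from 0 to 4 for EV+RANKL against RANKL at 72 h. For 72 h against 48 h they ran from 0 to 1 in PBS, 1 to 5 in EV, 0 to 5 in RANKL and 3 to 5 in EV+RANKL. Tests of the difference between times ran from 0 to 2 for RANKL and for EV. The RANKL difference in share ran from 3.32 to 4.08 points, that of vesicles from -0.288 to 0.471 and that of 72 h from 1.14 to 1.90. Replicates of the 15 genes differed by a median of 0.06 to 0.26 (log2) within groups of 2 libraries, which limits comparisons of single groups more than the averages over 16.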
